A study of Homo sapiens with 8 samples.

Results

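Proteasomes do not form unaided, and their subunits are brought together by dedicated assembly chaperones that are not part of the finished particle. For the 20S core, PSMG1 and PSMG2 form one dimer and PSMG3 and PSMG4 form another, and both help to build the ring of alpha subunits. POMP then guides the beta subunits onto that ring, helps half-proteasomes to join, and is degraded by the particle it has helped to make. For the base of the 19S cap, which holds a ring of ATPases, PSMD5, PSMD9, PSMD10 and PAAF1 each bind particular ATPases and leave as the cap is completed. Cells that lack proteasome activity are known to raise transcripts of proteasome genes, a response driven by the transcription factor NFE2L1.

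The 9 genes of these chaperones, 5 for the 20S core (POMP, PSMG1, PSMG2, PSMG3 and PSMG4) and 4 for the 19S base (PAAF1, PSMD5, PSMD9 and PSMD10), were taken by symbol from a table of 38551 genes. The table held fragment counts from RNA-sequencing of MOLM-13 cells, a line established from human acute myeloid leukemia that carries a KMT2A fusion. Both groups were cultures of this single line kept for 72 h, one with 100 nM PR-957 (ONX-0914), an inhibitor of the immunoproteasome subunit PSMB8, and one with the diluent DMSO alone. Each group held 4 libraries. The labels do not say whether replicates were separate cultures, so p-values measure only the spread between these libraries, which may be technical.

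Total counts ran from 16675036 to 23111223 per library, and the ranges of the groups overlapped (exact permutation p = 0.914, two-sided). The share of counts from mitochondrially encoded genes was 1.94% to 2.75% in DMSO and 4.15% to 5.24% in PR-957 libraries. Library scaling factors from the TMM method (trimmed means of log ratios) were 0.958 to 0.992 in DMSO and 1.00 to 1.05 in PR-957, so the choice of scaling moves all fold changes together. With library totals alone the median log2 fold change of all tested genes moved from 0.0030 to 0.08. A principal component analysis set the treatments apart on its first component, with 58.3% of the variance, and replicates 1 and 2 apart from replicates 3 and 4 on its second, with 13.3%. All 8 myeloid markers examined had counts in every library, while CD3E was at 0 throughout and the 4 erythroid genes HBA1, HBA2, HBB and ALAS2 had at most 3 counts. The summed level of the 8 myeloid markers was 1413 to 1499 CPM (TMM-normalised counts per 1000000 counts) in DMSO and 2182 to 2449 in PR-957, with 3 higher and 1 lower. Of 6 genes of monocyte maturation, 4 were tested and 3 were higher, with CD14 and VCAN at no more than 12 counts. Mean CPM in DMSO and PR-957 was 1.12 and 12.4 for S100A8, 2.56 and 17.2 for S100A9, and 0.66 and 1.76 for FCN1. The summed level of the 6 was 26.0 to 64.3 CPM in DMSO against 52.4 to 59.8 CPM in PR-957. Most of the DMSO sum came from ITGAX, which was not among the 3 (32.5 ± 17.7 CPM in DMSO, 24.7 ± 3.81 in PR-957, SD). Whether these shifts play a part in the results on chaperones was not tested.

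Transcripts of the chaperones changed little in PR-957-treated cells. Of the 9 genes, all of which passed the filter on low counts, PSMG3 was higher and PSMG2 and PSMG4 were lower with edgeR's quasi-likelihood test (adjusted p below 0.05), and the other 6 did not pass the threshold. Among all 13179 genes tested, 23.1% were higher and 23.5% lower. The largest change of a chaperone was 1.16-fold, and 54.8% of all tested genes had a larger one. The widest 95% interval ended at 0.40 on the log2 scale, so none of the 9 intervals reached a 1.5-fold change (0.58). In bulk RNA, fewer cells with a transcript and less of it per cell cannot be told apart. The groups did not overlap for 1 of the 9 genes, which was lower. Such a separation was found in the higher direction for 20.8% and in the lower direction for 21.7% of all tested genes.

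**Figure D1:**
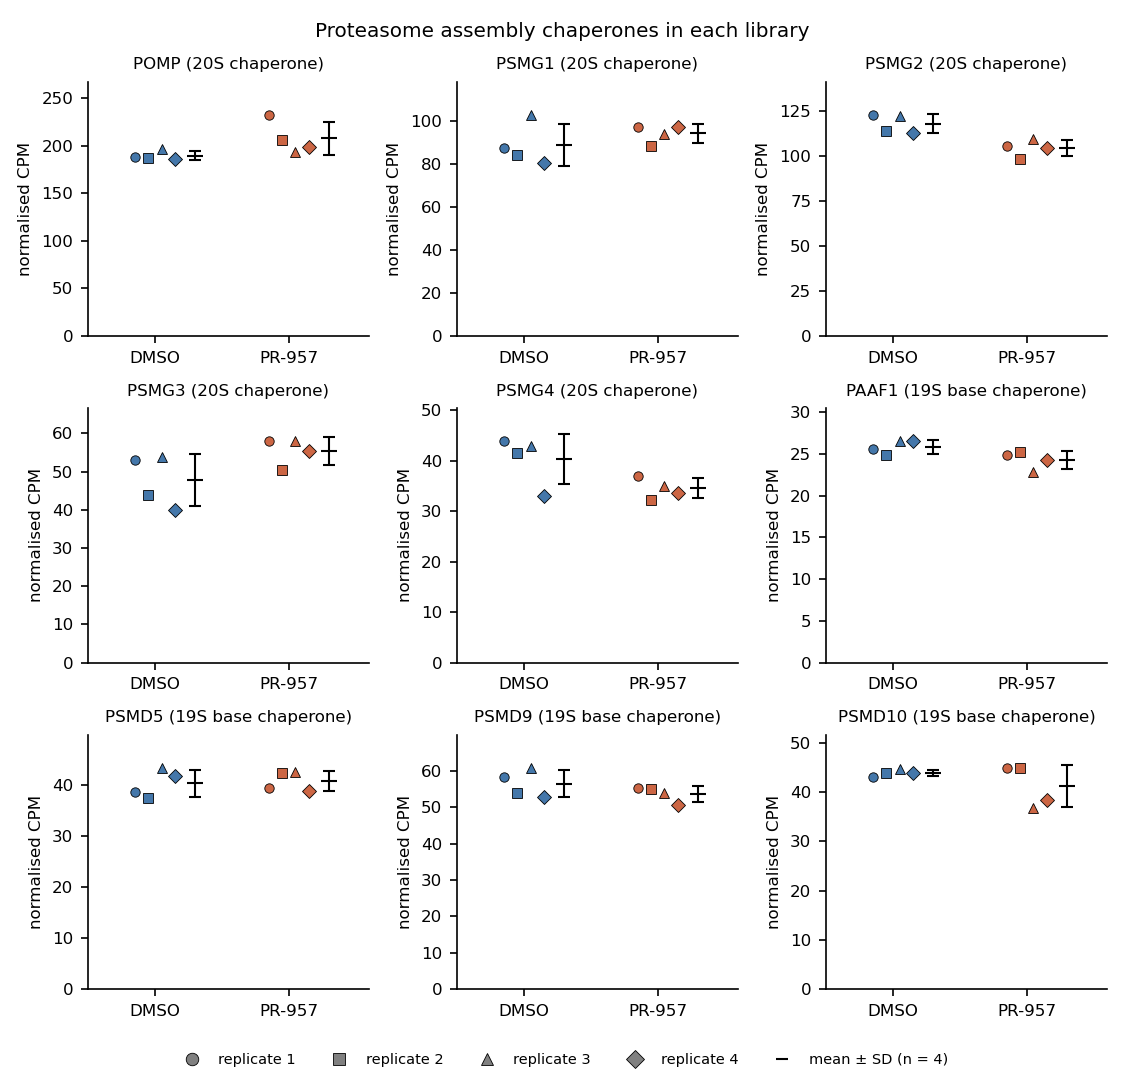
Normalised counts (CPM, TMM-scaled, vertical axes from 0) of the 9 assembly chaperones in 4 DMSO (blue) and 4 PR-957 (orange) libraries, with symbols for replicate numbers and bars for mean ± SD (n = 4). Only for PSMG2 do all PR-957 libraries lie apart from all DMSO libraries, below them.

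Promoter sequences were set beside these results because the antioxidant response element is the site through which NFE2L1 is known to act. Windows of 300 bases, from 250 before to 50 after an annotated start, came from RefSeq (GRCh38.p14) for 8 of the 9 genes, with a pair of windows for PSMG2. The core of the element, TGACNNNGC on either strand, was present for 4 of these 8 genes. It was in 13.3% of all 35116 windows and in 14.7% of windows of tested genes. The 5 matches are shown with their flanking bases, each 5′ to 3′ on the strand of the gene, with the core in capitals.
PSMG1, chr21:39183610-39183650, minus strand: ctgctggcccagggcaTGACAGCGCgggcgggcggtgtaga
PSMG2, chr18:12658683-12658723, plus strand: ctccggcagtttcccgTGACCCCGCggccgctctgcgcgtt
PSMD5, chr9:120843032-120843072, minus strand: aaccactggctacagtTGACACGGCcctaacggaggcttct
PSMD9, chr12:121888625-121888665, plus strand: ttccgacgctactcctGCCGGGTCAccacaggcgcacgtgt
PSMD9, chr12:121888672-121888712, plus strand: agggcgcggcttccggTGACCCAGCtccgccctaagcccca

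Of the genes with a match, PSMG2 was lower and PSMG1, PSMD5 and PSMD9 did not pass the threshold. The match of PSMG2 lies before the upstream of its pair of annotated starts, and no match was found in the window of the other. POMP, PSMG4, PAAF1 and PSMD10 had no match in these windows. A second motif, the ETS core CCGGAAG on either strand, was chosen after the sequences had been read and is shown because it is near the start of several chaperone genes. It was present for 4 of 8 genes, in 10.3% of all windows and in 17.2% of windows of tested genes. Because the motif was picked from these same sequences, its share among the chaperones cannot be weighed against those shares. It is printed in capitals, again on the strand of the gene.
POMP, chr13:28659070-28659108, plus strand: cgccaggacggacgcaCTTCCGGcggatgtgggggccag
PSMG4, chr6:3258887-3258925, plus strand: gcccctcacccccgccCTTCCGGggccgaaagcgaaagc
PAAF1, chr11:73876959-73876997, plus strand: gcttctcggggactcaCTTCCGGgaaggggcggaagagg
PSMD9, chr12:121888665-121888703, plus strand: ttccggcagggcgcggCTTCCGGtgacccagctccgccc

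The ETS core of PSMD9 ends where one of its antioxidant response element cores begins, without overlap. The 4 genes with an ETS core had log2 fold changes of 0.13 (POMP), -0.22 (PSMG4), -0.09 (PAAF1) and -0.07 (PSMD9), so their values lay on both sides of 0. A match of letters describes the sequence and says nothing of binding.

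POMP, the chaperone that brings in the beta subunits, had the highest level of the family. Its CPM values were 188, 187, 196 and 186 in DMSO replicates 1 to 4 and 233, 206, 193 and 199 in PR-957 replicates 1 to 4. The groups overlapped through DMSO replicate 3 and PR-957 replicate 3, and PR-957 replicate 1 was the highest library. The log2 fold change was 0.13 (SE 0.06, 95% interval 0.01 to 0.26, adjusted p = 0.0701). The difference was 0.23 (adjusted p = 0.00405) in replicates 1 and 2 only and 0.03 (adjusted p = 0.785) in replicates 3 and 4 only. When PR-957 replicate 3 was left out, POMP was called higher (0.17, adjusted p = 0.0451), as it was with library totals alone (0.21, adjusted p = 0.00282). The difference was 0.07 without PR-957 replicate 1 (adjusted p = 0.301).

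The partners PSMG1 and PSMG2, which work as a dimer on the alpha ring, had log2 fold changes of opposite sign. PSMG2 had 123, 114, 122 and 113 CPM in DMSO replicates 1 to 4 and 105, 98.7, 109.6 and 104 CPM in PR-957 replicates 1 to 4. Every PR-957 library was below every DMSO library, by a narrow margin between DMSO replicate 4 and PR-957 replicate 3. PSMG2 fell, with 118 ± 5.33 CPM in DMSO and 104.5 ± 4.52 in PR-957 cells (SD, n = 4) and a difference of -0.17 on the log2 scale (SE 0.06, 95% interval -0.29 to -0.06, adjusted p = 0.0143). PSMG2 remained past the threshold in 16 of 19 alternative analyses, the exceptions being library totals alone (adjusted p = 0.148), replicates 3 and 4 only (-0.14, adjusted p = 0.188) and the fit without PR-957 replicate 2 (adjusted p = 0.0515). PSMG1 had 87.3, 84.3, 103 and 80.3 CPM in DMSO against 97.3, 88.1, 94.1 and 97.0 CPM in PR-957. DMSO replicate 3 was the highest of these libraries, and the groups overlapped. The log2 fold change of PSMG1 was 0.09 (SE 0.07, 95% interval -0.06 to 0.23, adjusted p = 0.313). Without DMSO replicate 3 it was 0.16 and passed the threshold (adjusted p = 0.0401), as it did with library totals alone (0.17, adjusted p = 0.0422).

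PSMG3 and PSMG4, the partners of the other dimer, also had changes of opposite sign, and here both passed the threshold. PSMG3 had 53.1, 43.9, 53.8 and 40.1 CPM in DMSO replicates 1 to 4 and 57.9, 50.4, 57.9 and 55.4 CPM in PR-957 replicates 1 to 4. DMSO replicates 2 and 4 were low, whereas DMSO replicates 1 and 3 lay within the range of the PR-957 libraries. PSMG3 rose, with 47.7 ± 6.80 CPM in DMSO and 55.4 ± 3.56 in PR-957 cells and a difference of 0.22 on the log2 scale (SE 0.09, 95% interval 0.04 to 0.40, adjusted p = 0.0473). PSMG4 had 43.8, 41.4, 42.9 and 33.0 CPM in DMSO against 36.9, 32.3, 35.1 and 33.7 CPM in PR-957. Here DMSO replicate 4 alone lay within the range of the PR-957 libraries. PSMG4 fell, with 40.3 ± 4.94 CPM in DMSO and 34.5 ± 1.97 in PR-957 cells and a difference of -0.22 on the log2 scale (SE 0.08, 95% interval -0.39 to -0.05, adjusted p = 0.0355).

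Both calls were close to the threshold and depended on single libraries and on the analysis. PSMG4 was not called with library totals alone (-0.14, adjusted p = 0.151) or by limma-voom (-0.20, adjusted p = 0.0572). With replicates 1 and 2 against 3 and 4 as a term in the edgeR fit, PSMG3 was not called (0.22, adjusted p = 0.0513) and PSMG4 was (adjusted p = 0.0213). The increase of PSMG3 was not called when DMSO replicate 2 or 4 or PR-957 replicate 1, 3 or 4 was left out, with adjusted p from 0.0165 to 0.131 over the 8 libraries left out in turn. The decrease of PSMG4 was not called when DMSO replicate 1, 2 or 3 was left out, nor when PR-957 replicate 2, 3 or 4 was, with adjusted p from 0.000647 to 0.113. Without DMSO replicate 4 the log2 fold changes were 0.14 (adjusted p = 0.124) for PSMG3 and -0.31 (adjusted p = 0.000647) for PSMG4. Within replicates 1 and 2 the values were 0.16 (adjusted p = 0.140) and -0.30 (adjusted p = 0.00551), and within replicates 3 and 4 they were 0.28 (adjusted p = 0.0887) and -0.14 (adjusted p = 0.369). The direction of both genes held in all 19 alternatives.

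**Figure D2:**
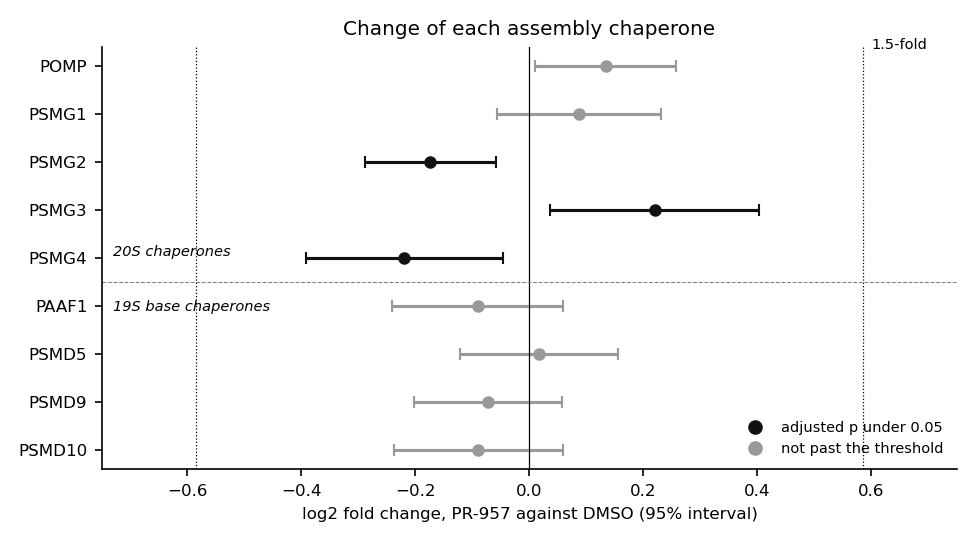
Log2 fold change (PR-957 against DMSO, horizontal axis) of each chaperone with its 95% interval from the edgeR fit of 4 against 4 libraries, black where the adjusted p is under 0.05. Dotted lines mark 1.5-fold (0.58 on the log2 scale), which none of the intervals reaches.

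None of the 4 chaperones of the 19S base passed the threshold, and their log2 fold changes lay between -0.09 and 0.02. Without adjustment, edgeR gave a p below 0.05 for 4 of the 9 chaperones, namely POMP, PSMG2, PSMG3 and PSMG4. The share among all tested genes was 53.2%, so the chaperones did not exceed it. For the base chaperones the count was 0 of 4 by edgeR, DESeq2 and limma-voom alike. PAAF1, a WD-repeat protein that binds ATPases of the base, had 25.6, 24.8, 26.5 and 26.5 CPM in DMSO against 24.9, 25.3, 22.8 and 24.2 CPM in PR-957. Its log2 fold change was -0.09 (SE 0.07, 95% interval -0.24 to 0.06, adjusted p = 0.314). PSMD10, the oncoprotein gankyrin, had 43.1, 43.9, 44.6 and 43.8 CPM in DMSO against 44.8, 44.9, 36.8 and 38.4 CPM in PR-957. PR-957 replicates 1 and 2 were just above all DMSO libraries and PR-957 replicates 3 and 4 below all of them, which gave differences of 0.04 (adjusted p = 0.705) and -0.24 (adjusted p = 0.0521) on the log2 scale within these pairs. Over all libraries the log2 fold change of PSMD10 was -0.09 (95% interval -0.24 to 0.06, adjusted p = 0.314).

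PSMD9, which binds PSMC3 and PSMC6 during base assembly, had 58.4, 54.0, 60.8 and 52.8 CPM in DMSO against 55.3, 54.9, 53.9 and 50.6 CPM in PR-957. The groups overlapped, with a log2 fold change of -0.07 (95% interval -0.20 to 0.06, adjusted p = 0.357). PSMD5, which binds PSMC2 and PSMC1, had 38.7, 37.5, 43.3 and 41.7 CPM in DMSO against 39.4, 42.4, 42.5 and 38.8 CPM in PR-957, so that the PR-957 libraries lay within the range of the DMSO libraries. Its log2 fold change was 0.02 (95% interval -0.12 to 0.16, adjusted p = 0.852).

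A ratio of 2 genes within a library does not depend on how libraries are scaled, and 7 such ratios were compared by an exact permutation test, in which the 8 libraries can be labelled in 70 ways. The smallest two-sided exact permutation p of this design is 0.0286, and 6 of 7 ratios reached it (adjusted p = 0.0333 over the 7). For PSMG1 over PSMG2, the ratio of counts was 0.710, 0.740, 0.841 and 0.711 in DMSO replicates 1 to 4 and 0.922, 0.893, 0.858 and 0.929 in PR-957 replicates 1 to 4. All PR-957 ratios were above all DMSO ratios, and the log2 ratio was higher by 0.27 (SE 0.06). For PSMG3 over PSMG4, the ratio was 1.21, 1.06, 1.25 and 1.21 in DMSO and 1.57, 1.56, 1.65 and 1.64 in PR-957. All PR-957 ratios were again above all DMSO ratios, with a difference of 0.44 in the log2 ratio (SE 0.06) that stayed between 0.39 and 0.47 when single libraries were left out. Of all tested genes, 34.6% had a higher ratio to PSMG2 and 27.4% a higher ratio to PSMG4 with no overlap between the groups.

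**Figure D3:**
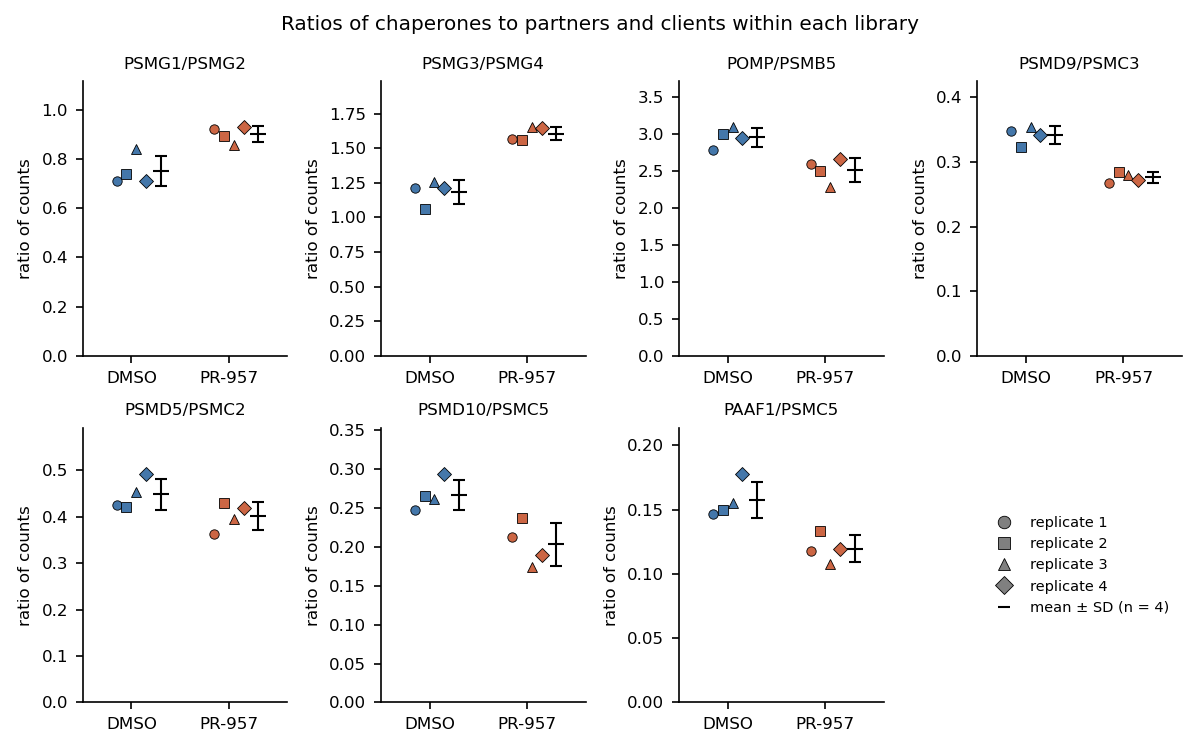
Ratio of fragment counts of 2 genes within each library (vertical axes from 0) for 7 pairs, in 4 DMSO (blue) and 4 PR-957 (orange) libraries, with mean ± SD. The groups are separate in 6 of 7 pairs, upward for PSMG1/PSMG2 and PSMG3/PSMG4 and downward for chaperones over proteasome subunits, and they overlap for PSMD5/PSMC2.

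The remaining 5 ratios set a chaperone beside a subunit that it binds or, for PSMD10, beside PSMC5, the ATPase that pairs with its own target PSMC4. All 5 were lower on average in PR-957 libraries. The subunits PSMB5, PSMC2, PSMC3 and PSMC5 were themselves higher by 0.37, 0.18, 0.23 and 0.30 on the log2 scale (edgeR, adjusted p = 6.5e-05, 0.0221, 0.00159 and 0.000317). POMP over PSMB5, the catalytic beta subunit that POMP helps to place, was 2.78, 3.00, 3.09 and 2.94 in DMSO and 2.59, 2.49, 2.28 and 2.66 in PR-957. The PR-957 ratios were all lower, with a difference of -0.24 in the log2 ratio (SE 0.06). PSMD9 over PSMC3 went from 0.341 ± 0.0137 to 0.276 ± 0.00826 (SD, n = 4), a difference of -0.31 in the log2 ratio. PSMD10 over PSMC5 and PAAF1 over PSMC5, which share a denominator, differed by -0.40 (SE 0.11) and -0.39 (SE 0.09). Both differences were smaller in replicates 1 and 2 (-0.19 and -0.24) than in replicates 3 and 4 (-0.61 and -0.55), values for which no test was run.

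For PSMD5 over PSMC2 the groups overlapped, with values of 0.424, 0.421, 0.454 and 0.493 in DMSO against 0.362, 0.429, 0.396 and 0.419 in PR-957. The difference of the log2 ratio was -0.16 (SE 0.08, exact permutation p = 0.114). A lower ratio with no overlap was common for these denominators among all tested genes, at 50.1% for PSMB5, 41.7% for PSMC3, 30.6% for PSMC2 and 46.0% for PSMC5. The lower ratios of the chaperones are to be read against these shares.

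The other proteasome genes were counted in the same fit. Of 31 tested genes for constitutive subunits, 22 were higher and 0 lower, with a median log2 fold change of 0.23. For all tested genes the shares were 23.1% higher and 23.5% lower. By position in the particle, 3 of 7 alpha, 6 of 6 beta, 6 of 9 base and 7 of 9 lid subunits were higher. The median was -0.07 for the 9 chaperones (0.09 for the 5 of the 20S core and -0.08 for the 4 of the 19S base) and 0.0030 for all tested genes. Each list of subunits had a leading gene above any chaperone. These were PSMA7 (0.44), PSMB6 (0.53), PSMD1 (0.71) and PSMD11 (0.57), with adjusted p from 1.99e-08 to 9.27e-05. PSMB3 and PSMC4 were listed at 0 counts in every library and were not tested. The gene models place both on a chromosome and also on an alternate or fix contig, so these zeros were not read as absence of the transcript. Of the 5 immunoproteasome genes, PSMB9, PSME1 and PSME2 (at most 17 counts) were likewise placed on further contigs and not tested. PSMB8 and PSMB10 were tested and did not pass the threshold. Their edgeR log2 fold changes were -0.15 (SE 0.15, adjusted p = 0.438) and 0.22 (SE 0.09, adjusted p = 0.0692). Whether the gene models of PSMB8 and PSMB10 also lie on further contigs was not examined, and a loss of their counts was not tested. None of the 9 chaperones lay on such a contig.

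**Figure D4:**
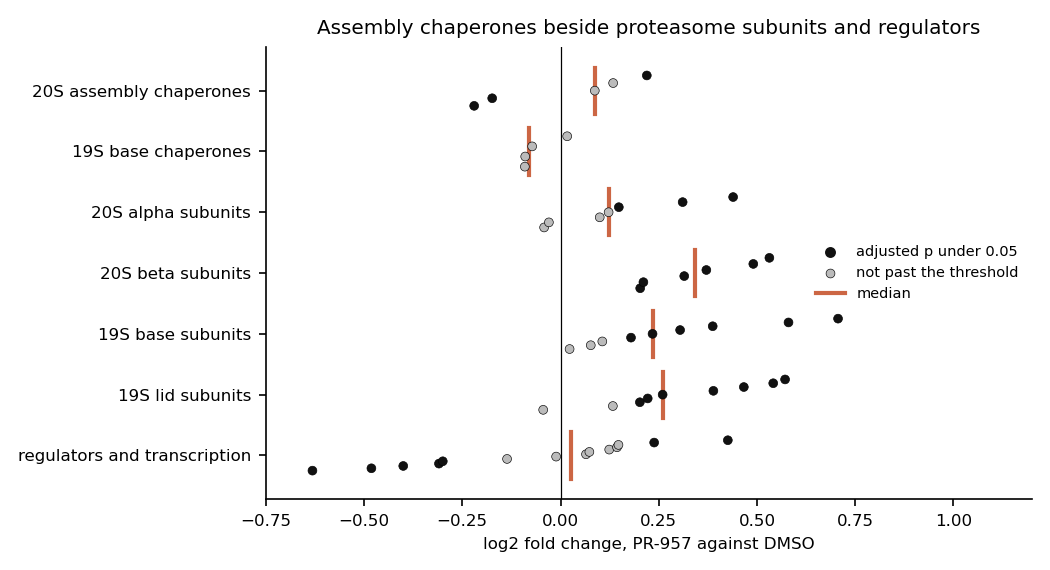
Log2 fold change (PR-957 against DMSO, horizontal axis) of each tested gene by list, black where the edgeR adjusted p is under 0.05, with the median of the list as an orange line. The medians of the 4 lists of subunits lie between 0.12 and 0.34, that of the 20S chaperones at 0.09 and that of the 19S base chaperones at -0.08.

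Among 14 regulators of the proteasome and of its transcription, 2 were higher and 5 lower. The shares of all tested genes were 23.1% higher and 23.5% lower. NFE2L1, the transcription factor that raises proteasome genes when proteasome activity is low, fell, with 115 ± 2.7 CPM in DMSO and 74.5 ± 3.12 in PR-957 cells. This was the largest change of that list (-0.63 on the log2 scale, SE 0.05, adjusted p = 1.54e-08). This is a transcript level, whereas NFE2L1 is known to be controlled largely through the stability and processing of its protein. UCHL5, a deubiquitinase of the 19S cap, and TXNL1, a thioredoxin-like protein bound to the cap, were also lower, by -0.48 (adjusted p = 6.15e-07) and -0.40 (adjusted p = 7.73e-06) on the log2 scale. PSME3, an activator that caps the 20S core, was higher by 0.43 (adjusted p = 4.08e-06). The other called genes of the list were ECPAS (-0.31) and AKIRIN2 (-0.30), both lower, and USP14 (0.24), which was higher.

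Levels were compared between chaperones as CPM per kilobase of exon. In DMSO cells POMP had 141 ± 3.51 CPM per kilobase (SD, n = 4) and PSMG2 had 107 ± 4.83, followed by PSMG1 (43.7 ± 4.86), PSMG3 (33.0 ± 4.71), PSMD10 (27.9 ± 0.398), PSMD9 (20.7 ± 1.37) and PSMD5 (11.9 ± 0.789). PAAF1 (4.09 ± 0.129) and PSMG4 (3.70 ± 0.454) were lowest and within their spread of each other. The place of PSMG4 depends on its gene model, since the count table gives it 10891 exon bases and the canonical GENCODE v44 transcript has 785. With canonical lengths, a choice made after the data were seen, PSMG4 had 51.3 ± 6.30 and PSMG1 50.6 ± 5.62 CPM per kilobase, which do not differ beyond their spread. All counts of a gene were divided by its canonical length, so any counts of PSMG4 from other exons raise its value. The fold change and ratio of PSMG4 also rest on counts over all 10891 exon bases. POMP and PSMG2 stayed highest with either length.

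Each of the 9 genes was placed on a single chromosome by the table, and none shared exon bases with another gene on its own strand. PSMG3 (chromosome 7, 1567332 to 1570490) shared 1.18% of its exon bases with PSMG3-AS1 on the opposite strand. For PSMD10 (chromosome X, 108084205 to 108091644), 3 processed pseudogenes matched up to 47.0% of its longest transcript at 90.6% to 94.0% identity, so its count is less certain than those of the other chaperones. The remaining 8 had no other transcript that matched at least 20% of their length at 90% identity. The genes called were PSMG2 (chromosome 18, 12658739 to 12725740), PSMG4 (chromosome 6, 3254325 to 3308224) and PSMG3, all in hg38 coordinates.

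PSMG2, the chaperone with the smallest adjusted p, was used to search for genes with a similar profile over the 8 libraries. Among 9140 genes, the nearest by root mean square difference of centred log2 CPM were ZNF410 (0.0177), CNPY3 (0.0267) and NCSTN (0.0283), where the median gene was at 0.174. Their log2 fold changes were -0.16, -0.14 and -0.22. This is a description of likeness in these libraries and carries no test.

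**Figure D5:**
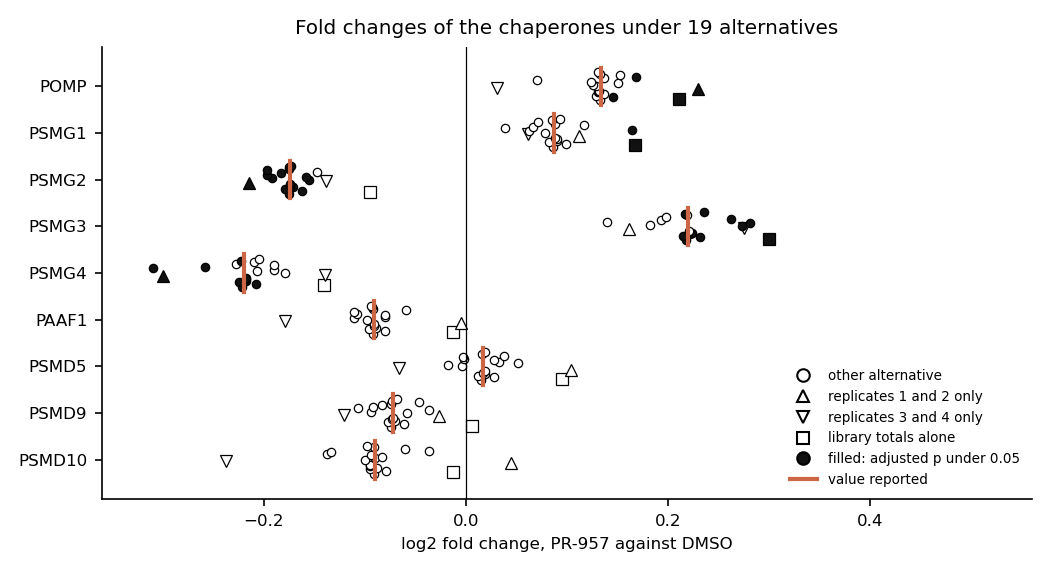
Log2 fold change (horizontal axis) of each chaperone under 19 alternative analyses, filled where the adjusted p is under 0.05, with the reported value as an orange line. Values of POMP, PSMG1, PSMG2, PSMG3, PSMG4 and PAAF1 keep their sign throughout, while PSMD5, PSMD9 and PSMD10 cross 0 in some alternatives.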

How the data were processed

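Libraries of polyA RNA from MOLM-13 cells, 4 with DMSO and 4 with PR-957, were grouped by sample title. Per the submitters' processing notes, reads were trimmed with Trimmomatic 0.39, aligned to hg38 with STAR 2.7.10a and counted with featureCounts 2.0.1 on the reverse strand against NCBI RefSeq. The authors deposited these counts as raw whole numbers of fragments for each gene, without scaling. No source used here says whether the library kit marks strand. The table had 38557 rows, of which 6 were empty and not used. The authors' own comparison table (fold changes and p-values from DESeq2) was not used.

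PR-957 was compared with DMSO by edgeR 4.0.16 in R 4.3.3 (glmQLFit, robust, glmQLFTest, two-sided, TMM scaling, filterByExpr), with Benjamini-Hochberg adjustment over 13179 genes. SE was the absolute log2 fold change over the square root of F, and intervals used the t quantile of the fit. Ratios used log2 counts with 0.5 added and exact permutation tests. On simulated data for this comparison with 13065 genes tested, 97.0% of 2-fold and 66.0% of 1.5-fold changes were recovered, and 5.78% of calls were unchanged genes. The simulation gave every gene the same fixed dispersion and changed only 200 genes. Both settings differ from these libraries, so it checks the code and does not give the share of changes missed here. Replicate pairs differed beyond sampling noise (at least 3.29 chi-square per gene, where noise gives about 1).

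The 9 genes and all lists were chosen with earlier results of these data known. Named genes were the 9 chaperones, 4 subunits they bind, the largest called change of each list and the 3 genes nearest in profile to the chaperone with the smallest adjusted p. Other names were chosen after their values were seen. Some marker genes are not reported here. Alternatives were DESeq2 1.42.0, voom from limma 3.58.1, other scalings and filters, a replicate block, pairs of replicates, and leaving out each library. Canonical transcript length was added after the data were seen.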

Additional observations from a re-analysis of the deposited data

Results flagged for a closer look

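One value stood apart from its group. POMP in DMSO replicate 3 was at 196 CPM, with a gap to the next DMSO library of 0.843 of the range of the group, above Dixon's 95% critical value for 4 samples. It was the only one among 40 groups of 4 libraries examined for the chaperones, the 4 subunits and the 7 ratios, and chance gives about 1 in 20. Without DMSO replicate 3 the log2 fold change of POMP was 0.15 (edgeR adjusted p = 0.0765).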

How the results depend on the processing

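With 1 chaperone higher and 2 lower in the reported analysis, the counts depended on scaling and on the libraries used. With library totals alone 3 were higher and 0 lower, where the shares of all tested genes were 30.9% and 17.9%. The number higher was 2 with upper-quartile scaling and 0 with replicates 1 and 2 against 3 and 4 as a term. Replicates 3 and 4 only gave 0 higher and 0 lower (edgeR, where 2 of the 9 chaperones and 44.4% of all genes in that fit had an unadjusted p under 0.05), and limma-voom gave 1 lower. Leaving out single libraries gave 0 to 2 higher and 0 to 2 lower. DESeq2, RLE scaling and both filters gave the reported counts. Values that changed sign were those of PSMD9 with library totals alone (0.0064), PSMD10 in replicates 1 and 2 only (0.0445) and PSMD5, which was -0.0665 in replicates 3 and 4 only. PSMD5 ranged from -0.0173 to 0.0512 when single libraries were left out, and was below 0 when the omitted library was DMSO replicate 1 (-0.0034), DMSO replicate 2, PR-957 replicate 2 (-0.0020) or PR-957 replicate 3 (-0.0030). None of these passed the threshold. The cause of these changes was not tested.

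The replicate numbers of both groups were the same, but nothing in the labels says that they mark a shared culture. Deviations of same-numbered libraries correlated at 0.0886 to 0.200, and 7 of 8 libraries correlated best with their own number, so the pairing stayed a hint. With the replicate number as a block, 2 chaperones were higher (POMP, adjusted p = 0.0335, and PSMG3, adjusted p = 0.00351) and 2 lower (PSMG2, adjusted p = 0.00327, and PSMG4, adjusted p = 0.00802), where 26.7% and 25.8% of all genes were called. For the ratios, sign flips of same-numbered pairs gave 0 calls, since the smallest p of this paired test is 0.125. A pseudocount of 0 left the number of ratios past the threshold at 6.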
